A study of Arabidopsis thaliana with 48 samples.

Results

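A group of 7 Arabidopsis thaliana stress-response genes with a stronger herbicide response in gcn2 seedlings was described across genotype, treatment and RNA type. The genes were AT3G60420, AT3G54150, AT1G43910, AT4G24110, AT1G78410, AT1G44130 and SAG101 (AT5G14930). The members were taken by locus from the probe-to-gene table of the array, which named 13333 genes, and they had 8 of the 22746 probe sets tested. AT3G60420 had 2 probe sets, and each of the others had 1. The genes are given by name, with measured responses in these same samples in view, and which responses decided the choice is not stated. They were treated as selected on their herbicide responses in total and polysomal RNA, so values of those RNA types are given as a description, without a test.

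RNA was hybridised to Affymetrix ATH1 arrays from the aerial part of 10-day seedlings of the line Landsberg erecta. The groups were gcn2 mutant seedlings with herbicide, gcn2 mutant seedlings with mock treatment, wild-type seedlings with herbicide and wild-type seedlings with mock treatment. The herbicide was chlorsulfuron (spelled chlorosufuron in the labels), given by a submersion of 1 min followed by 2 h of incubation, and mock seedlings received the solvent alone. The dose is uncertain, since the labels give it as 0.5 mM but describe a 10000-fold dilution of a 5 mM stock, or 0.5 µM. Which gcn2 allele was used is not given in the labels. Each group had 3 replicates of total RNA and 3 sucrose gradients, and each gradient gave 3 arrays (non-polysomal RNA, small polysomes, large polysomes), 48 arrays in all. Separate cultures are not stated for the replicates, and the spread behind the p-values may therefore be technical.

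GCN2 is a protein kinase that is activated by uncharged tRNA when amino acids run short, and it phosphorylates the translation initiation factor eIF2α. Chlorsulfuron blocks acetolactate synthase, an enzyme of branched-chain amino acid synthesis. SAG101 is a lipase-like protein that partners with EDS1 in immune signalling and is also known as a senescence-associated gene. AT1G78410 encodes a VQ motif protein, a family whose members bind WRKY transcription factors. AT1G43910 encodes a P-loop ATPase of the BCS1-like AAA type, AT1G44130 an aspartyl protease family protein and AT3G54150 a methyltransferase family protein. AT3G60420 belongs to the phosphoglycerate mutase-like (histidine phosphatase) family, and AT4G24110 is one of the core genes induced by low oxygen, with no known function.

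Values are on the log2 scale, so a difference of 1 is a 2-fold change. Array medians ran from 6.15 to 6.31, except for 5.67 in replicate 1 of the large polysome arrays of wild-type mock. Lower quartiles of the arrays lay between 3.44 and 3.83, and the size of a change is uncertain where a group mean lies below them. In at least 1 RNA type, that held for mock groups of AT1G44130, AT3G54150 and AT1G43910, and for wild-type herbicide of AT1G44130. A second probe set of AT3G60420 read 1.96 to 2.92 in all 48 arrays, below every lower quartile, so the gene's values below come from the brighter one. Of the markers listed for other tissues, EXPA7, EXPA18 and the peroxidase gene AT5G17820, all root genes, had group means of 2.87 to 3.44 in total RNA. PYK10, a beta-glucosidase gene abundant in roots, had 10.5, 10.6, 10.5 and 10.7 in the 4 groups, and none of the 4 root markers passed the test for the herbicide in either genotype. None of the 6 green leaf markers had a named probe set, so the aerial tissue was not checked with them here.

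Before the results by gene, the wild-type gradients of replicate 3 need a description, because they went against their labels. In wild-type total RNA, herbicide minus mock was above 0 for 7 of 7 genes within each replicate number. In the non-polysomal, small and large polysome arrays of replicates 1 and 2, 6 or 7 of the 7 genes were higher with herbicide. In replicate 3 the gradients labelled herbicide lay below those labelled mock for 7 of 7 genes in non-polysomal RNA (median -1.32) and in small polysomes (median -1.25). In large polysomes of replicate 3 the median was -1.79, and 1 of the 7 genes, AT4G24110, was higher with herbicide (1.39). The same turn was seen outside the genes described: 915 other probe sets that rose in wild-type total RNA had a mean herbicide minus mock of -0.64, -0.72 and -0.18 in the replicate 3 fractions, against 0.70 to 1.06 in the fractions of replicates 1 and 2. In gcn2, 7 of 7 genes were higher with herbicide in every replicate and RNA type. Wild-type responses and differences between responses in non-polysomal and polysomal RNA are therefore given with and without the wild-type gradients of replicate 3. Other results that rest on wild-type gradients include replicate 3 unless stated. The cause of the turn was not tested.

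**Figure D1:**
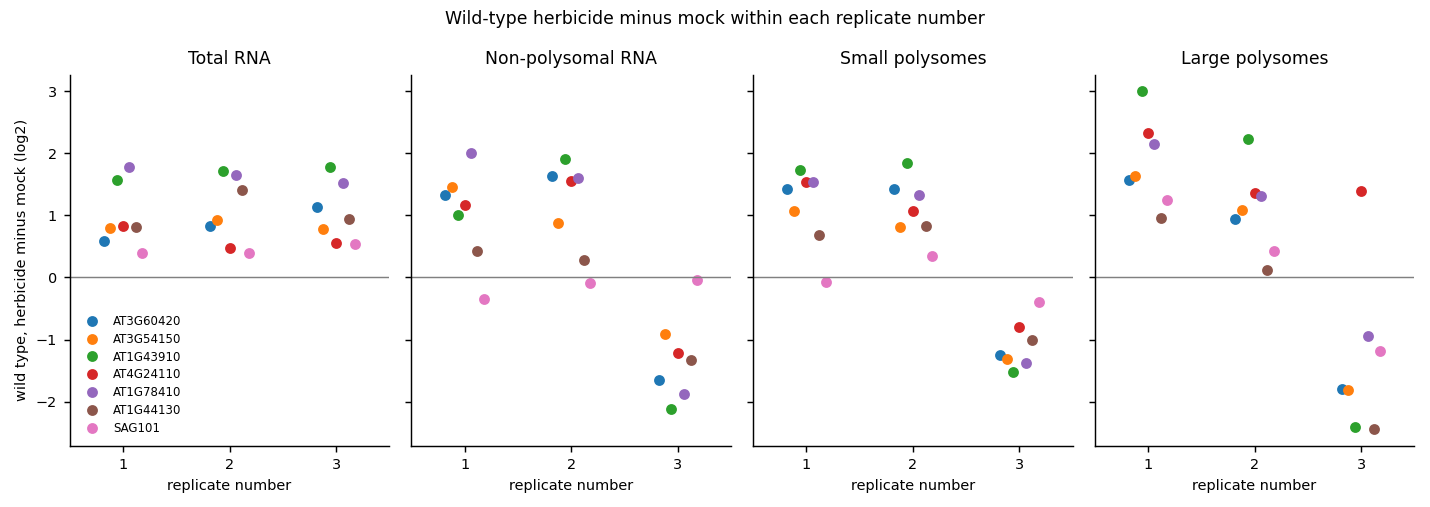
Wild-type herbicide minus mock (log2, vertical axis) within each replicate number (horizontal axis) for the 7 genes, 1 panel per RNA type, 1 coloured point per gene. Total RNA lies above 0 in all 3 replicates, whereas replicate 3 lies below 0 in the fractions, except AT4G24110 in large polysomes at 1.39.

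In total RNA all 7 genes were highest in herbicide-treated gcn2. For each of the 7 genes the lowest of the 3 gcn2 herbicide arrays exceeded the highest of the 9 other arrays, which 5.19% of all probe sets did. The choice of the genes is taken to rest on this contrast, so nothing is read from the count. Herbicide minus mock ranged over the 7 genes between 1.30 and 4.37 in gcn2, against 0.44 to 1.69 in wild type. The values cannot tell a change in the number of cells that express a gene from a change in RNA per cell.

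SAG101, the EDS1 partner, read 8.87, 8.92 and 8.79 in gcn2 with herbicide and 7.49, 7.59 and 7.60 in gcn2 with mock, against 8.18, 8.05 and 8.12 in wild type with herbicide and 7.79, 7.65 and 7.58 in wild type with mock. The 4 groups were ordered gcn2 herbicide, wild-type herbicide and then both mock groups, which overlapped. The change was 1.30 ± 0.11 (SE) in gcn2 and 0.44 ± 0.11 in wild type. SAG101 was well expressed without treatment and had the smallest response of the 7 genes in both genotypes.

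AT1G78410, the VQ motif gene, read 9.50, 9.19 and 9.87 in gcn2 with herbicide and 6.39, 5.86 and 6.43 in gcn2 with mock, against 7.72, 7.31 and 7.60 in wild type with herbicide and 5.94, 5.66 and 6.07 in wild type with mock. Herbicide arrays lay above mock arrays in both genotypes without overlap, and the 2 mock groups overlapped. The change was 3.30 ± 0.19 in gcn2 and 1.65 ± 0.19 in wild type, so the wild-type change was 50.1% of the gcn2 change on the log2 scale, the highest share among the 7 genes.

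Among the enzyme genes, AT1G43910, the AAA-type ATPase gene, had the largest response. It read 8.40, 8.34 and 8.40 in gcn2 with herbicide and 4.18, 4.13 and 3.71 in gcn2 with mock, against 5.90, 6.18 and 6.13 in wild type with herbicide and 4.33, 4.46 and 4.35 in wild type with mock. All groups were tight, and the gcn2 mock arrays lay just below the wild-type mock arrays. These changes correspond to 20.7-fold in gcn2 and 3.23-fold in wild type, and they ranked 7 and 43 among the rises of all 22746 probe sets.

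AT3G60420, the phosphoglycerate mutase-like gene, read 9.62, 9.77 and 9.94 in gcn2 with herbicide and 6.05, 5.98 and 5.96 in gcn2 with mock, against 7.39, 7.41 and 7.57 in wild type with herbicide and 6.81, 6.58 and 6.44 in wild type with mock. No groups overlapped, and the gcn2 mock arrays were the lowest, 0.61 ± 0.13 below the wild-type mock mean. Its difference between the responses, 2.94 ± 0.19, was the largest of all probe sets. AT3G54150, the methyltransferase gene, had the next largest at 2.86 ± 0.18. It read 6.55, 6.75 and 6.69 in gcn2 with herbicide and 2.76, 3.04 and 3.13 in gcn2 with mock, against 4.19, 4.22 and 4.07 in wild type with herbicide and 3.40, 3.31 and 3.30 in wild type with mock. Here too the gcn2 mock arrays lay below all wild-type mock arrays, at levels below the lower quartile of the arrays.

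AT1G44130, the aspartyl protease gene, read 6.43, 6.36 and 6.94 in gcn2 with herbicide and 3.92, 3.57 and 3.69 in gcn2 with mock, against 4.40, 4.64 and 4.16 in wild type with herbicide and 3.58, 3.24 and 3.23 in wild type with mock. The change was 2.84 ± 0.18 in gcn2 and 1.05 ± 0.18 in wild type. It and AT1G78410 were the genes of the 7 with a higher mean in gcn2 than in wild type under mock, by 0.38 ± 0.18 and 0.33 ± 0.19.

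AT4G24110, the low-oxygen gene, spread most between replicates. It read 9.59, 8.90 and 8.60 in gcn2 with herbicide and 6.60, 5.84 and 5.83 in gcn2 with mock, against 7.97, 6.87 and 6.62 in wild type with herbicide and 7.15, 6.41 and 6.07 in wild type with mock. Replicate 1 was the highest in all 4 groups, and wild-type herbicide and mock arrays overlapped. Within each replicate number, wild-type herbicide was still above mock. Replicate numbers paired the total RNA samples, and with the replicate as a block its change was 2.94 ± 0.12 in gcn2 and 0.62 ± 0.12 in wild type, against an SE of 0.35 without the block.

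**Figure D2:**
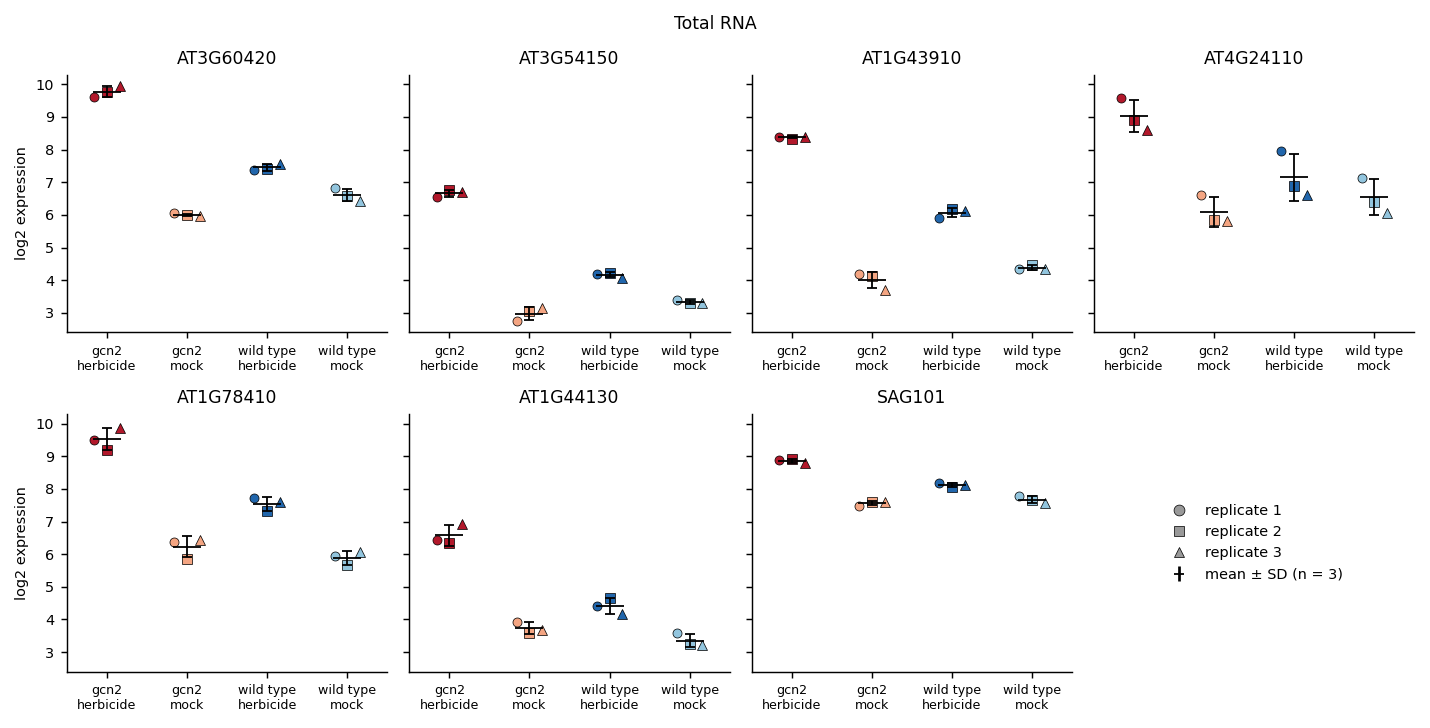
Total RNA level (log2 expression, vertical axis) of the 7 genes in gcn2 herbicide, gcn2 mock, wild-type herbicide and wild-type mock (n = 3 each). Marker shapes give the replicate number, and the bar and whiskers give mean ± SD. Herbicide-treated gcn2 lies above the 9 other arrays in all 7 panels.

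Non-polysomal RNA was taken as not used to pick the genes, and its contrasts were tested with limma. That is an assumption, and its arrays come from the same gradients as the polysomal ones. Non-polysomal RNA is also a part of total RNA, on which the genes are taken to have been chosen. These tests are therefore not independent of the choice, even if the assumption holds. In gcn2, 7 of the 8 probe sets rose with herbicide, the exception being the dim second probe set of AT3G60420. Over all probe sets, 3.99% passed in that direction. AT1G43910 rose by 3.85 ± 0.48 (adjusted p = 0.00013), AT3G54150 by 3.29 ± 0.35 (adjusted p = 4.6e-05) and AT1G78410 by 3.24 ± 0.48 (adjusted p = 0.00059). SAG101 had the smallest rise again, 0.81 ± 0.18 (adjusted p = 0.013), and AT3G60420, AT1G44130 and AT4G24110 rose by 2.86 ± 0.42, 2.82 ± 0.33 and 2.60 ± 0.45. The SAG101 call was lost without gcn2 herbicide replicate 3 or without gcn2 mock replicate 2 (adjusted p = 0.056 each, 0.0067 to 0.056 over the alternatives).

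In wild-type non-polysomal RNA no probe set of the 7 genes and 0.0% of all 22746 passed for the herbicide (adjusted p = 0.998, limma; 405 had an unadjusted p under 0.05, none of them a member). The 7 changes ran from -0.20 to 0.58. Without the wild-type gradients of replicate 3, 3 of the 8 probe sets rose, where 2.37% of all probe sets passed in either direction. These were AT1G78410 by 1.80 ± 0.25 (adjusted p = 0.0038), AT3G60420 by 1.47 ± 0.25 (adjusted p = 0.011) and AT1G43910 by 1.46 ± 0.28 (adjusted p = 0.022). AT4G24110 then had 1.36 (adjusted p = 0.10), AT3G54150 1.16 (adjusted p = 0.058), AT1G44130 0.36 (adjusted p = 0.62) and SAG101 -0.22 (adjusted p = 0.67). With the replicate as a block in addition, 5 of the 8 probe sets passed, where 7.45% of all probe sets did.

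The response differed between genotypes for 3 of the 8 probe sets in non-polysomal RNA, where 0.95% of all probe sets passed with a larger response in gcn2. AT1G44130 read 5.38, 6.31 and 6.47 in gcn2 with herbicide and 3.51, 3.06 and 3.14 in gcn2 with mock, against 3.95, 3.48 and 3.06 in wild type with herbicide and 3.52, 3.20 and 4.38 in wild type with mock. The wild-type groups overlapped, and all gcn2 herbicide arrays were above the other 9. The gcn2 response exceeded the wild-type response by 3.02 ± 0.46 (adjusted p = 0.0042), and by 2.46 ± 0.42 (adjusted p = 0.017) without the wild-type gradients of replicate 3. Over 19 alternatives the adjusted p ran from 0.002 to 0.021.

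AT3G54150 read 6.54, 7.14 and 6.60 in gcn2 with herbicide and 2.98, 3.48 and 3.95 in gcn2 with mock, against 4.58, 4.23 and 3.76 in wild type with herbicide and 3.13, 3.35 and 4.67 in wild type with mock. The highest wild-type value was the mock array of replicate 3. The gcn2 response exceeded that of wild type by 2.82 ± 0.50 (adjusted p = 0.011), and by 2.12 ± 0.39 (adjusted p = 0.022) without the replicate 3 gradients of wild type, with adjusted p from 0.0073 to 0.043 over 19 alternatives.

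AT1G43910 read 7.73, 8.01 and 7.47 in gcn2 with herbicide and 4.07, 3.84 and 3.74 in gcn2 with mock, against 5.38, 5.36 and 3.59 in wild type with herbicide and 4.38, 3.44 and 5.70 in wild type with mock. The replicate 3 arrays of wild type were the lowest with herbicide and the highest with mock. Its responses differed by 3.59 ± 0.68 (adjusted p = 0.017), and by 2.40 ± 0.37 (adjusted p = 0.011) without those gradients. This call was lost without gcn2 herbicide replicate 2 (adjusted p = 0.060) or gcn2 mock replicate 2 (adjusted p = 0.056), and the adjusted p ran from 0.0061 to 0.060 over 19 alternatives.

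The other 4 genes did not pass the test of the difference in non-polysomal RNA. AT1G78410 had 2.66 ± 0.68 (adjusted p = 0.080), AT3G60420 2.43 ± 0.60 (adjusted p = 0.066), SAG101 0.97 ± 0.26 (adjusted p = 0.092) and AT4G24110 2.09 ± 0.63 (adjusted p = 0.16). All 4 had an unadjusted p under 0.05. Without the wild-type gradients of replicate 3 the first 2 dropped to 1.43 (adjusted p = 0.051) and 1.39 (adjusted p = 0.055), and AT4G24110 to 1.23 (adjusted p = 0.30), whereas SAG101 stayed at 1.03 (adjusted p = 0.10). Over the alternatives the adjusted p ran from 0.013 to 0.21 for AT1G78410, from 0.016 to 0.17 for AT3G60420, from 0.045 to 0.22 for SAG101 and from 0.023 to 0.33 for AT4G24110. All 4 passed when the wild-type gradients of replicate 3 were left out and the replicate was a block, a setting in which 4.26% of all probe sets passed in either direction, against 1.06% with all arrays and no block. In addition, AT1G78410 passed without wild-type herbicide replicate 1 (3.12, adjusted p = 0.038) and AT3G60420 without wild-type herbicide replicate 2 (2.77, adjusted p = 0.040).

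Compared directly within the herbicide treatment, 6 of the 8 probe sets were higher in non-polysomal RNA of gcn2 than of wild type, where 3.37% of all probe sets were. AT1G43910 differed by 2.96 ± 0.48 (adjusted p = 0.0019), AT3G54150 by 2.57 ± 0.35 (adjusted p = 0.0006), AT1G44130 by 2.56 ± 0.33 (adjusted p = 0.00035) and AT1G78410 by 2.13 ± 0.48 (adjusted p = 0.013). AT3G60420 and SAG101 differed by 1.63 ± 0.42 (adjusted p = 0.028) and 0.88 ± 0.18 (adjusted p = 0.0082). These values include wild-type herbicide replicate 3, the lowest array of its group for all genes but SAG101. With 1 replicate left out, the lowest difference was 2.37 for AT1G43910, 2.35 for AT3G54150 and 2.34 for AT1G44130. It was 1.51 for AT1G78410 and 0.76 for SAG101, and each of these genes passed in all 19 alternatives. AT4G24110 had 1.42 ± 0.45 (adjusted p = 0.066), and its arrays overlapped, with 8.92, 8.43 and 7.69 in gcn2 and 7.71, 7.14 and 5.91 in wild type. It passed in 5 of 19 alternatives, among them the replicate block (adjusted p = 0.036), with adjusted p from 0.0021 to 0.24 over the 19. Its lowest difference with 1 replicate left out was 0.92. The AT3G60420 call was lost without any 1 of the 3 gcn2 herbicide arrays or without wild-type herbicide replicate 3 (adjusted p = 0.051 to 0.095). With the wild-type gradients of replicate 3 left out in both treatments it was 1.07 (adjusted p = 0.011), and over all 19 alternatives the adjusted p ran from 0.0061 to 0.095.

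Under mock treatment no member passed between the genotypes in non-polysomal RNA (17 probe sets, 0.0747%, did; no member had an unadjusted p under 0.05, limma). The 7 gcn2 minus wild-type values ran from -0.80 to -0.09, all below 0. Without the wild-type gradients of replicate 3 they ran from -0.32 to 0.23, with 5 below 0.

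**Figure D3:**
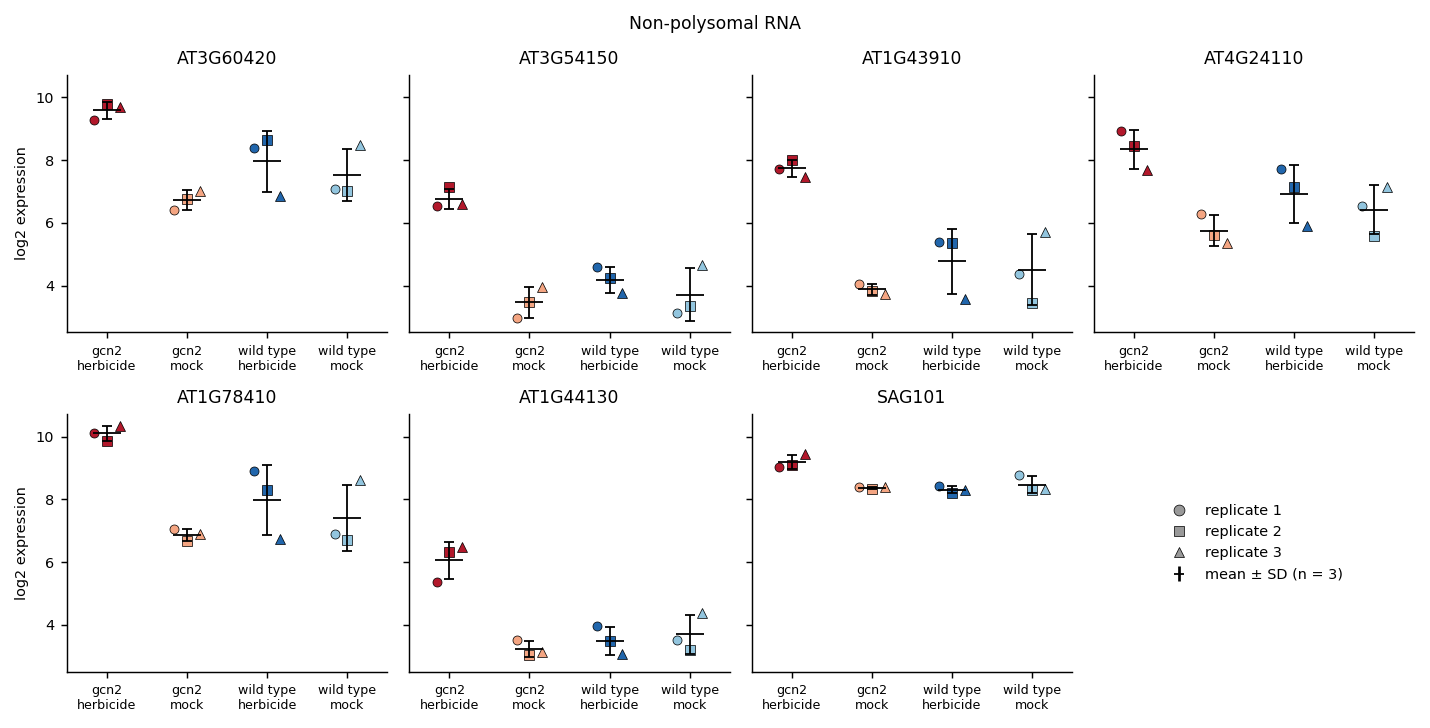
Non-polysomal RNA level (log2 expression, vertical axis) of the 7 genes in gcn2 herbicide, gcn2 mock, wild-type herbicide and wild-type mock (n = 3 each), with replicate numbers as marker shapes and mean ± SD. The triangles of replicate 3 are the lowest wild-type herbicide and the highest wild-type mock arrays in 6 of 7 panels, SAG101 excepted.

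Polysomal RNA, the mean of small and large polysomes of a gradient, is described without a test. In gcn2 the 7 genes changed by 1.26 to 4.22, with AT1G43910 at the top and SAG101 at the bottom. In wild type they changed by -0.14 to 1.14 with all gradients, and by 0.49 to 2.20 without replicate 3. Over the 7 genes the median difference between the responses was 2.97 with all gradients and 2.02 without replicate 3 of wild type, against 2.33 in total RNA. In small polysomes 7 of 7 genes were higher in the 3 gcn2 herbicide arrays than in the 9 others (4.53% of all probe sets), and in large polysomes 6 of 7 were (3.42%).

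AT1G78410 reached the highest level of the 7 genes in small polysomes, with 11.1, 10.9 and 10.9 in gcn2 with herbicide and 7.01, 6.61 and 7.19 in gcn2 with mock, against 8.68, 8.30 and 7.39 in wild type with herbicide and 7.15, 6.97 and 8.76 in wild type with mock. In large polysomes it read 9.73, 9.18 and 9.99 in gcn2 with herbicide and 6.38, 5.81 and 6.62 in gcn2 with mock, against 7.38, 6.87 and 5.83 in wild type with herbicide and 5.24, 5.55 and 6.77 in wild type with mock. Each group was lower in large than in small polysomes. For SAG101 the exception to the separation in large polysomes was 1 array: wild-type mock replicate 3 at 8.97, between the gcn2 herbicide values of 8.82, 9.10 and 9.10.

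**Figure D4:**
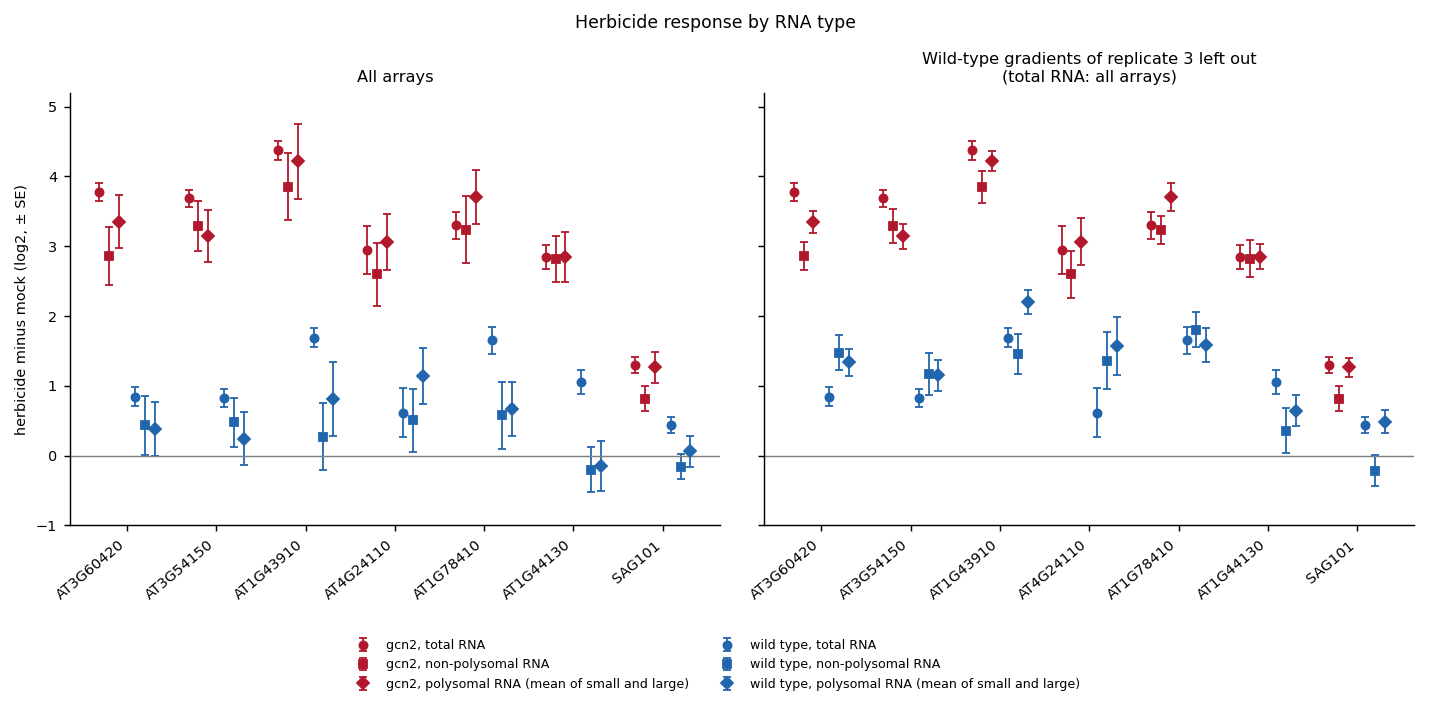
Herbicide minus mock (log2, vertical axis; ± SE of the fit) for the 7 genes in gcn2 (red) and wild type (blue), in total, non-polysomal and polysomal RNA. With all arrays (left) the wild-type fraction values lie between -0.20 and 1.14, and without the wild-type gradients of replicate 3 (right) most lie near or above the wild-type total RNA values, below those of gcn2.

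Polysome loading, polysomal minus non-polysomal RNA of the same gradient, did not pass for the herbicide in any of the 7 genes. It holds the polysomal values on which the genes are taken to have been chosen, so its contrasts are not independent of the choice. In gcn2, values ran from -0.15 to 0.49 (SE 0.23 to 0.31), and 0.0484% of all probe sets passed. In wild type they ran from -0.23 to 0.64, and the difference between the genotypes from -0.18 to 0.54. In those contrasts no probe set passed with limma, with 0.0% called, while 1188 and 1419 had an unadjusted p under 0.05, 2 and 0 of them members.

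Between genotypes under herbicide, 2 genes had the largest differences in loading. AT3G60420, centred on the median of each gradient, read 0.33, 0.15 and 0.04 in gcn2 with herbicide, against -0.63, -1.04 and -0.57 in wild type with herbicide. AT1G78410 read 0.35, 0.20 and 0.10 in gcn2 with herbicide, against -0.89, -0.69 and -0.19 in wild type with herbicide. For both genes gcn2 lay above and wild type below the median probe set of their gradients. The differences were 0.89 ± 0.25 and 0.78 ± 0.23 with all gradients, and 1.00 ± 0.27 and 1.00 ± 0.21 without the wild-type gradients of replicate 3. They are given without a test, because polysomal RNA enters them in the direction of the choice.

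The level of loading relative to the gradient median passed in 9 of the 32 combinations of a probe set and a group. Of all probe sets, 26.5% and 29.2% passed in gcn2 with herbicide and with mock, and 29.7% and 29.1% in wild type with herbicide and with mock. The count for the members was close to these shares, so nothing is read from it, and the calls below only describe single genes. AT4G24110 was loaded above the median in gcn2, by 1.20 ± 0.23 with herbicide and 0.71 ± 0.23 with mock (adjusted p = 0.028). In gcn2 with herbicide, polysomal RNA enters the level in the direction of the choice. The AT4G24110 value there is therefore given without a p-value, although it is among the 9 counted. In wild type it had 0.50 with herbicide (adjusted p = 0.12) and -0.11 with mock (adjusted p = 0.77). AT3G60420 lay below the median in wild type, by -0.75 ± 0.17 with herbicide (adjusted p = 0.0023) and -0.67 ± 0.17 with mock (adjusted p = 0.0056), and so did AT1G78410, by -0.59 ± 0.16 (adjusted p = 0.011) and -0.65 ± 0.16 (adjusted p = 0.0062). SAG101 lay below it in both mock groups, by -0.65 ± 0.18 in gcn2 (adjusted p = 0.011) and -0.55 ± 0.18 in wild type (adjusted p = 0.029). AT1G43910 was above it in wild type with herbicide (0.65 ± 0.17, adjusted p = 0.0064). The wild-type mock value of SAG101 rested on replicates 1 and 2, at -1.15 and -0.57, with replicate 3 at 0.09, and it was lost without either (-0.24 and -0.53). Several other of these calls were lost without 1 gradient of their own group: AT4G24110 in gcn2 mock without any 1 of the 3, and SAG101 in gcn2 mock without replicate 1 or 2. In wild type with herbicide that held for AT1G43910 without replicate 1, AT1G78410 without replicate 1 or 2 and AT3G60420 without replicate 2, and in wild type with mock for AT1G78410 without replicate 3.

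**Figure D5:**
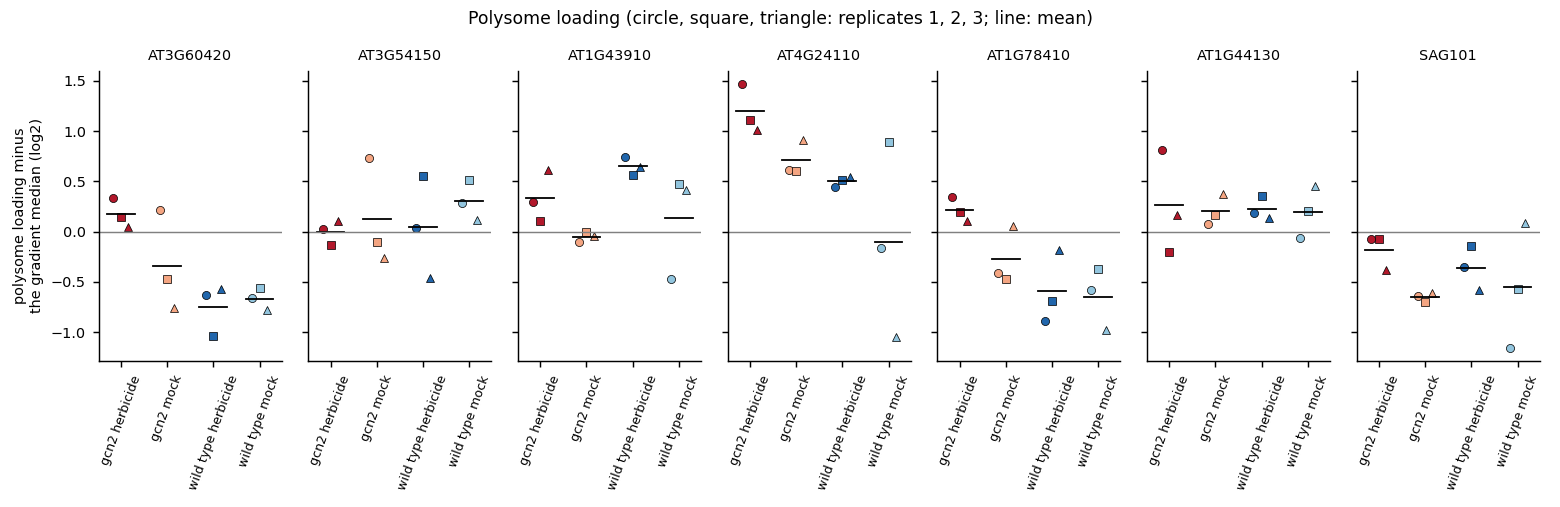
Polysome loading (polysomal minus non-polysomal RNA of a gradient, log2, centred on the gradient median; vertical axis) of the 7 genes in gcn2 herbicide, gcn2 mock, wild-type herbicide and wild-type mock. Points are gradients and lines are means of 3. AT3G60420 and AT1G78410 lie above 0 in gcn2 with herbicide and below 0 in wild type with herbicide.

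The balance of large against small polysomes passed the test in all 4 groups for AT1G78410 and in at most 1 group for each of the other 6 genes. Relative to the gradient median, its large minus small value was -1.38 ± 0.17 in gcn2 with herbicide (adjusted p = 0.00039) and -0.73 ± 0.17 in gcn2 with mock (adjusted p = 0.010), against -1.44 ± 0.17 in wild type with herbicide (adjusted p = 0.0003) and -1.73 ± 0.17 in wild type with mock (adjusted p = 3e-05). It was below 0 in 12 of 12 gradients. Of all probe sets, 19.3% and 17.9% passed in gcn2 with herbicide and with mock, and 19.4% and 22.7% in wild type with herbicide and with mock. AT3G60420 in gcn2 mock (0.59, adjusted p = 0.042) and AT4G24110 in wild-type mock (-1.19, adjusted p = 0.010) also passed. The AT3G60420 call was lost in 9 of the 12 settings that left out 1 gradient, that of AT4G24110 without the wild-type gradients of replicate 3 (-0.73, adjusted p = 0.073), and that of AT1G78410 in gcn2 mock without replicate 1 or 2 of that group. AT1G43910 had 0.78, 0.66 and 0.78 in gcn2 with herbicide, gcn2 with mock and wild type with herbicide (adjusted p = 0.078, 0.14 and 0.077). In those groups it passed once the wild-type gradients of replicate 3 were left out, at 0.78, 0.66 and 0.77 (adjusted p = 0.011, 0.030 and 0.044), and with the replicate block added the wild-type value was 0.57 (adjusted p = 0.081). The herbicide did not move this balance past the threshold in gcn2 for any probe set (adjusted p = 1.00, limma; 440 had an unadjusted p under 0.05, 2 of them members).

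Relatives of the 7 genes were counted in non-polysomal RNA of gcn2, with the members left out. Of all probe sets, 3.99% rose there. Among 15 measured VQ motif genes 3 rose and none fell, with AT4G20000 at 1.33 ± 0.21 (adjusted p = 0.00085) and AT2G22880 at 2.11 ± 0.36 (adjusted p = 0.0019), and the median of the list was 0.31, against -0.02 over all probe sets. Among 18 low-oxygen genes 3 rose, with AT1G26270 at 1.45 ± 0.27 (adjusted p = 0.0031) and CML38, a calmodulin-like protein, at 3.45 ± 0.66 (adjusted p = 0.0044), and the median was 0.03. Of the 5 methyltransferase relatives of AT3G54150, 4 rose, with AT1G55450 at 1.53 ± 0.19 (adjusted p = 0.00011) and AT2G41380 at 0.91 ± 0.21 (adjusted p = 0.015), and the median was 0.88. One of 15 aspartyl protease genes rose, AT1G49050, by 2.33 ± 0.23 (adjusted p = 2e-05), with a list median of -0.06. None of 13 BCS1-type ATPase genes passed (median 0.04), nor did any of 9 histidine phosphatase genes (0.08), 2 senescence-associated genes (0.25), 1 gene of the EDS1 group (0.22), 4 root markers (0.15) or 1 guard cell marker (-0.20).

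Among these relatives, the response differed between genotypes for AT1G49050, by 2.42 ± 0.32 (adjusted p = 0.0017), and for AT1G55450, by 1.36 ± 0.26 (adjusted p = 0.018). Without the wild-type gradients of replicate 3, the first list still had 1 gene past the threshold and the second had none. In wild-type non-polysomal RNA none of the listed relatives passed with all arrays, where 0.0% of all probe sets did. Without replicate 3 of its gradients 2 low-oxygen genes rose, CML38 by 2.72 ± 0.34 (adjusted p = 0.0023) and AT4G17670 by 1.67 ± 0.22 (adjusted p = 0.0032), and in gcn2 1 senescence-associated gene and 1 histidine phosphatase gene then passed as well, WRKY6 (0.75, adjusted p = 0.039) and AT1G08940 (0.81, adjusted p = 0.035).

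In total RNA of gcn2 the same relatives gave other counts, where 6.67% of all probe sets rose and 4.87% fell. Of the VQ motif genes 4 of 15 rose, and of the low-oxygen genes 3 of 18 rose and 3 fell, with a list median of -0.18, against -0.06 over all probe sets. Among the BCS1-type ATPase genes 2 of 13 rose, AT3G28580 by 0.97 ± 0.19 (adjusted p = 0.0027) and AT5G17760 by 0.50 ± 0.15 (adjusted p = 0.036), genes named after their values were seen. Of the aspartyl protease genes 2 of 15 rose and 1 fell, of the methyltransferase relatives 2 of 5 rose, and of the senescence-associated genes 1 of 2 did. The histidine phosphatase and EDS1 lists had none past the threshold. In wild-type total RNA, where 4.05% of all probe sets rose and 2.68% fell, 4 of 18 low-oxygen genes rose and 1 fell. There 2 of 15 VQ motif genes rose, and no gene of the other lists passed. For the low-oxygen genes the median difference between the responses was -0.26 in total RNA, against -0.02 over all probe sets, and none of them passed for it. The response differed between genotypes for AT5G17760 (0.88 ± 0.21, adjusted p = 0.046), AT1G49050 (1.54 ± 0.22, adjusted p = 0.001) and AT1G55450 (1.27 ± 0.28, adjusted p = 0.031), where 1.31% of all probe sets had a larger response in gcn2. With the replicate as a block, these counts in gcn2 became 4 VQ motif genes higher and 1 lower, 3 low-oxygen genes higher and 4 lower, 3 BCS1-type genes, 3 aspartyl protease genes higher and 2 lower, 3 methyltransferase relatives and 1 histidine phosphatase gene, while 2230 of all probe sets rose and 2696 fell. The difference then passed for 9 of the relatives, 8 of them with a larger response in gcn2. Of all probe sets, 644 then had a larger response in gcn2 and 407 a smaller one, 4.62% in either direction.

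Over the 16 group means, each RNA type centred on its own mean, the 7 genes had pairwise Pearson correlations of 0.905 (AT4G24110 with AT1G44130) to 0.985 (AT3G54150 with AT1G43910). These points share the same arrays and the same choice of genes, so the correlations are a description. Of 13505 named probe sets outside the group, the 5 most like the mean of the 7 genes were AR781 (r = 0.997), AT2G39650 (0.996), TET8, a tetraspanin (0.995), AT2G20142 (0.994) and AT2G32030 (0.994). Singly, the closest genes were AT2G32030 and ATPMEPCRB, a pectin methylesterase gene, for AT1G43910, OPCL1, a CoA ligase gene of jasmonate synthesis, and AT3G09405 for AT3G54150, and AT2G20142 and AT2G41640 for AT3G60420. For AT1G78410 they were AT2G39650 and AT5G50915, for AT1G44130 AT3G59080 and AT3G02840, for AT4G24110 AT1G20823 and AT2G41410, and for SAG101 AT1G56540 and AT4G28400, with r between 0.985 and 0.996 over all 14 pairs.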

How the data were processed

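RNA was measured on 48 ATH1 arrays, 3 per combination of genotype, treatment and RNA type. The authors deposited log2 expression values. The submitters' processing notes name RMA, the affy package and MAS5, with versions and roles not given in the sources used here. The number of arrays sets the precision. Without 64 control probe sets, 22746 were fitted with limma 3.58.1 in R 4.3.3 (lmFit with a mean per group, eBayes), with Benjamini-Hochberg adjustment over all of them and a threshold of 0.05. Polysomal RNA was the mean of small and large polysomes of a gradient, loading was that mean minus non-polysomal RNA, and levels of loading and of large minus small polysomes were centred on the gradient median. Names came from the probe table and RefSeq (TAIR10.1): 13513 probe sets had 1 gene, 503 several and 8730 none here. GCN2 itself was not analysed here. The fit was tested on simulated data.

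The members and gene lists were chosen with earlier results of these data known. All members were named, with up to 2 rising and 2 falling genes per list by smallest adjusted p, and the most correlated genes, 2 per member and 5 for their mean. Same-numbered samples deviated together in total RNA (18 of 18 pairs with a correlation over 0.1, mean 0.37) and in most pairs of polysomal RNA (15 of 18, mean 0.29). They did not do so throughout in non-polysomal RNA (10 of 18) or loading (4 of 18). The counts for fractions include the wild-type gradients of replicate 3. Values and SEs are from the fit without a replicate block unless stated. Alternatives left out each replicate, centred or quantile-normalized the arrays, dropped dim probe sets, used a trended robust variance, blocked on the replicate or left out the wild-type gradients of replicate 3.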

Additional observations from a re-analysis of the deposited data

Results flagged for a closer look

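In non-polysomal RNA the herbicide response of gcn2 differed from that of wild type, by a limma test of the difference itself, for 3 of the 7 genes, where 0.95% of all probe sets had a larger response in gcn2. The genes are taken to have been chosen on this contrast in total and polysomal RNA, so the count is a description and not independent of the choice. The difference (gcn2 minus wild type, log2) was 3.02 for AT1G44130, 2.82 for AT3G54150 and 3.59 for AT1G43910. Without the wild-type gradients of replicate 3 these values were 2.46, 2.12 and 2.40. The AT1G43910 call was lost without gcn2 herbicide replicate 2 or gcn2 mock replicate 2 (adjusted p = 0.060 and 0.056, limma). For each of the 3 genes, all 3 gcn2 replicates were higher with herbicide. In wild type, replicates 1 and 2 were higher with herbicide and replicate 3 was lower. Mock means of AT1G44130 and AT3G54150, and the wild-type herbicide mean of AT1G44130, lay below the highest lower quartile of the arrays, so the sizes of their differences are uncertain.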

How the results depend on the processing

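Across the alternatives no value past the threshold changed direction, nor did the responses in gcn2 and the differences between responses in total, polysomal and non-polysomal RNA. Values that did not pass turned: in non-polysomal RNA the wild-type response of AT1G44130 and AT1G43910, and gcn2 minus wild type under mock for 4 genes. In polysomal RNA the wild-type response turned for 3 genes and gcn2 minus wild type under mock for all 7. Contrasts of loading turned for up to 5 genes and of large minus small polysomes for up to 4. Leaving out each replicate in turn, the number of probe sets past the threshold in non-polysomal RNA ran from 2 to 4 for the difference between responses (3 with all arrays), 6 to 7 for the gcn2 response (7) and 5 to 7 for gcn2 against wild type with herbicide (6). For the level of loading it ran from 7 to 10 (9), and for the level of large minus small polysomes from 4 to 10 (6), the 10 without wild-type mock replicate 1. The median difference between responses ran from 2.02 to 2.60 in total RNA (2.33) and from 2.45 to 3.26 in polysomal RNA (2.97).

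Leaving out the wild-type gradients of replicate 3 gave 3 wild-type responses in non-polysomal RNA (0 with all arrays) and a polysomal median of 2.02. With the replicate block added to that setting, chosen after seeing the data, these were 5 and 2.02, and the difference between responses passed for 7 probe sets. Calls rose over all probe sets too, to 7.45% for the wild-type response (0.0% with all arrays) and 4.26% for the difference (1.06%). The replicate block alone left 3 of 8 probe sets past the threshold for the difference in non-polysomal RNA. In total RNA, the share of all probe sets with a difference between responses was 1.53% without the block and 4.62% with it. Of the other values, 1247 stayed the same, 36 lost a call, 11 gained one and 13 moved by more than the replicate spread. Staying the same meant keeping the side of the threshold or, for untested total and polysomal values, moving by less than the replicate spread. The causes were not tested. Changes of probe sets near the lower quartile of the arrays are uncertain in size.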

Other observations

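The genes on either side of the 7 genes were looked up in the annotation, 2 per side, a choice made after seeing the data. Of the 14 with a named probe set, AT1G78400, next to AT1G78410, was the 1 that rose in non-polysomal RNA of gcn2 (0.91 ± 0.25, adjusted p = 0.043, limma). Of all probe sets, 3.99% rose there, so nothing is read from this count. The AT1G78400 response did not differ between genotypes past the threshold (0.74 ± 0.35, adjusted p = 0.49). AT3G60440 and AT3G60450, neighbours of AT3G60420 in the same histidine phosphatase family, had -0.12 ± 0.19 and 0.08 ± 0.19 in non-polysomal RNA of gcn2 (adjusted p = 0.81 and 0.87). In total RNA of gcn2, AT1G78400 rose by 0.67 ± 0.17 (adjusted p = 0.017). So did AT3G60410, on the other side of AT3G60420, by 0.76 ± 0.23 (adjusted p = 0.044).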
